A study of Caenorhabditis elegans with 2 samples.

Results

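In whole young adult Caenorhabditis elegans, 239 of the 3291 peaks in the conservative set for the tagged protein dox-1 had their summit in the distal promoter, more than 500 and at most 1000 bp upstream of a gene's transcript start. Around each transcript start of the Ensembl annotation, the promoter window took in 1000 bp on the upstream side and 200 bp on the downstream side. A summit was kept when it lay on an autosome, in the window of exactly 1 protein-coding gene, and not within 500 bp of a tRNA gene, which left out 8 summits. Distance was taken to the nearest start of the gene that owned the window. At 39 summits a start of another gene was nearer, and at the other 200 none was. The 239 summits belonged to 223 genes, of which 16 had a pair of them, and lay in 236 distinct peak intervals. No measured level entered the choice beyond presence in the peak set.

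The worms were of strain RW12180, genotype st12180[dox-1::TY1::EGFP::3xFLAG], in which CRISPR had inserted a TY1, EGFP and 3xFLAG tag at the gene that the labels name both dox-1 and dxbp-1. They were young adults collected at 66 hours, from cultures synchronised by bleaching and starvation of L1 larvae, and chromatin was precipitated with an antibody against GFP. There were 2 biological replicates of this 1 group and no second strain, stage or untagged group was analysed here, so no test between conditions was possible. Whole animals were used, so a peak combines all tissues, and a site bound in few cells cannot be told apart from a site bound weakly in many.

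In C. elegans, intergenic distances are short and many genes are transcribed as operons, so a position well upstream of one start often falls near or inside another gene. Small nuclear RNA (snRNA) genes, which encode RNAs of the splicing machinery, and the SL2 genes, which encode the leader spliced onto downstream operon messages, have compact promoters of their own. Small nucleolar RNA (snoRNA) genes guide modification of ribosomal and other RNAs and often lie inside or beside protein-coding genes.

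The sequences under 7 of the strongest distal summits are shown because they cover the kinds of place where the signal was high: beside an SL2 gene (H41C03.3), in unrepeated intergenic DNA (K12H4.5, cbp-1 and usp-4), near the centromeric histone gene hcp-3, beside a snoRNA gene (fbxa-83) and beside a pseudogene (vps-39). Each reaches 50 bp to either side of the summit in ce11 and is read 5′ to 3′ on the strand of the gene named. Capitals mark the words GAGAGA (or TCTCTC, its reverse complement) and CGTCTC; a run of capitals can hold overlapping copies.
H41C03.3, chrII:5844756-5844856, plus strand: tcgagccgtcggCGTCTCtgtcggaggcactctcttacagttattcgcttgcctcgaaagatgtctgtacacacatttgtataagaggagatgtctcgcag
K12H4.5, chrIII:8043918-8044018, plus strand: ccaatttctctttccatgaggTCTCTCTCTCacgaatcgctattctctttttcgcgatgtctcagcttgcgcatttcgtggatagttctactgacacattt
hcp-3, chrIII:9617100-9617200, minus strand: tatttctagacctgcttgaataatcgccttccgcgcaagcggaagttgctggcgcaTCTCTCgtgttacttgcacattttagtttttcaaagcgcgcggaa
cbp-1, chrIII:9765603-9765703, plus strand: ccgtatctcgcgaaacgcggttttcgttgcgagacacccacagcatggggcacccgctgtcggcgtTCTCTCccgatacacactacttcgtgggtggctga
usp-4, chrIV:6756588-6756688, plus strand: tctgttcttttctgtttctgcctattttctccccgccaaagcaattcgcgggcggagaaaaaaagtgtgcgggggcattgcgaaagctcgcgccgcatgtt
fbxa-83, chrIV:14327108-14327208, minus strand: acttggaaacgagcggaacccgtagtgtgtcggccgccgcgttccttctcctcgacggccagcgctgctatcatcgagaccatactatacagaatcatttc
vps-39, chrV:14038839-14038939, minus strand: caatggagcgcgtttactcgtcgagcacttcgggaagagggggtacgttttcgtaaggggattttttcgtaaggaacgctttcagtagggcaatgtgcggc

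Some summits lay in closely related DNA. The aligned stretches of 2 such pairs are shown as examples of sequence that recurs at several distal summits. They are given 5′ to 3′ on the strand stated, and capitals mark the positions that differ within the pair.
Y62F5A.12, chrII:11534854-11535015, plus strand: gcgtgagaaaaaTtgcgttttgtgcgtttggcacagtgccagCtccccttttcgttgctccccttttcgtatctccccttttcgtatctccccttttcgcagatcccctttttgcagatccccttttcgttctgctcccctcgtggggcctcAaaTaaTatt
W09B6.4, chrII:1134742-1134906, plus strand: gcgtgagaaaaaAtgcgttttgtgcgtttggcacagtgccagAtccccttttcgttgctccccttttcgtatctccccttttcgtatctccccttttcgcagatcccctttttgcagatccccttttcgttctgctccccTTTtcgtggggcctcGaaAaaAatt
test-1, chrIV:2136010-2136168, plus strand: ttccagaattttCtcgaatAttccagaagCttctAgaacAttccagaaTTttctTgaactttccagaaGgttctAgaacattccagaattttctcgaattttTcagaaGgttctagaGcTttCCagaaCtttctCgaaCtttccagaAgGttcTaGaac
eri-12, chrIV:12155953-12156111, plus strand: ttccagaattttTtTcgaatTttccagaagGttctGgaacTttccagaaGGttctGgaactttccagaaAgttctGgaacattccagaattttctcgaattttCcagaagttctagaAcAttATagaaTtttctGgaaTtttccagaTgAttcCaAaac
Y62F5A.12 and W09B6.4 were 95.2% identical over 165 aligned columns, and test-1 and eri-12 were 85.0% identical over 160.

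Signal in each replicate was the authors' signal value of the highest peak that overlapped the interval in that replicate's ranked list. It has no stated unit. In replicate 1 the distal summits ran from 75.4 through a median of 146.0 to 1004, and in replicate 2 from 70.0 through 130.5 to 926. Replicate 1 gave no value at 4 summits and replicate 2 none at 2. Most sites were therefore modest and a short tail was high: 25 summits exceeded 300 in both replicates and 9 exceeded 500 in both. In the conservative set the median signal was 258.0, with quartiles of 191.2 and 375.3, and 186 summits had the top score of 1000.

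Of 233 summits with both values, 231 lay within 2-fold of each other, 147 were higher in replicate 1 and 86 in replicate 2, and log2 ratios (replicate 1 over 2) had a median of 0.12 and an SD of 0.38. Across these summits Pearson's r on the log2 scale was 0.89 and Spearman's rho 0.81, against 0.87 and 0.77 over 3234 conservative peaks. The points share libraries and were selected for reproducibility, so the coefficients are descriptive.

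**Figure D1:**
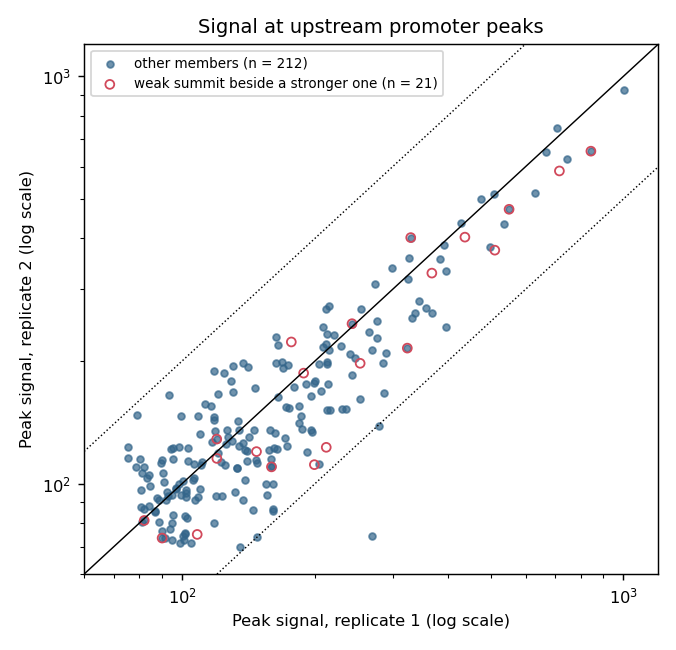
Signal of 233 distal promoter summits in replicate 1 (x axis) and replicate 2 (y axis), both on log scales without a stated unit. The solid line marks equal values and the dotted lines a 2-fold difference; red rings mark 21 summits whose own conservative signal was less than 50% of the sum of the replicate values. All but 2 points lie within 2-fold.

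An interval with several summits can hand a weak summit the value of a strong neighbour, and 21 members had a conservative signal below 50% of the sum of their replicate values. Among them were eel-1 and the second summits of H41C03.3 and egg-5. In 210 members each ranked list had a summit of its own within 100 bp.

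Peaks thresholded in the single replicates overlapped 188 of the 239 summits (78.7%) in replicate 1, where the background over all conservative peaks was 78.2%. In replicate 2 the count was 161 (67.4%) against 68.2%. Both shares were near the background. Of the others, 45 were thresholded in replicate 1 alone, 18 in replicate 2 alone and 33 in neither.

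Distal summits, with medians of 146.0 and 130.5 in replicates 1 and 2, were somewhat weaker than those at 200 to 500 bp. They were somewhat stronger than those at the start in replicate 1 and similar to them in replicate 2. The 319 summits at 200 to 500 bp upstream had medians of 161.3 and 151.4 in replicates 1 and 2, and the 410 summits within 200 bp of the start had 130.2 and 129.7. The order of the 200 to 500 bp class over the distal class held in each of the 2 replicates. So did that of the distal class over the start class, but only by little in replicate 2. The 180 distal summits with no noncoding gene within 200 bp had medians of 130.6 and 123.1. These are similar to the start class in replicate 1 and below it in replicate 2, although the start class was not reduced in the same way. No test was made, since peaks of the same libraries are not replicates. Within the distal range, the median of the mean signal in 5 successive bins of 100 bp, from nearest to farthest, was 144.5, 134.7, 140.4, 123.3 and 142.8, with no steady trend.

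The members nearest the limits of the range are given as a description. Just inside 500 bp, lin-66 (-501 bp) had 212.8 and 232.7 in replicates 1 and 2 and gmeb-1 (-504 bp) had 216.9 and 151.6. Just outside it, mvk-1 and sor-1, both at -500 bp, had 112.1 and 155.9, and 192.6 and 196.3. Just inside 1000 bp were egas-1 (-1000 bp, 101.5 and 75.4) and ppm-2 (-997 bp, 196.1 and 135.7), and just outside were hlh-30 (-1005 bp, 138.6 and 139.6) and mstr-1 (-1009 bp, 213.6 and 133.6).

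The strongest distal summit, at -637 bp, was that of rpa-2, a gene for part of replication protein A, which coats single-stranded DNA during replication and repair. It reached 1004 in replicate 1 and 926 in replicate 2 (965 ± 55.1, SD, n = 2). The sequence at this summit had 7 copies elsewhere in the genome, 4 of them in conservative peaks. The gene at the other side of the summit, kin-35, runs in the opposite direction. The K12H4.5 summit, at -519 bp and also between divergent genes, had 708 and 748 (728 ± 28.2, SD, n = 2).

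A centromere gene and a chromatin gene were among the strongest. The summit of hcp-3, the centromeric histone H3 variant, lay at -680 bp and had 508.5 and 515.5 (SD 4.90, n = 2). That of cbp-1, a CBP/p300-family histone acetyltransferase, lay at -856 bp and had 498.2 and 382.0. Both sit between divergent genes.

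The vps-39 summit, at -511 bp of a gene for a subunit of the vacuolar fusion complex HOPS, had 666 and 652, and lay 7 bp from a pseudogene. The usp-4 summit, at -673 bp of a ubiquitin-specific protease gene, had 536.6 and 434.7. For eel-1, a HECT-type ubiquitin ligase gene, the values of 716 and 586 came with a conservative signal of only 68.4, and the nearer summit at -382 bp in the same interval had 1312.

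The interval beside H41C03.3 held summits at -971 and -766 bp, with 844 and 655 in the replicates for both. The summit at -971 bp had the conservative signal of 1493 and the one at -766 bp only 161.6. The SL2 gene sls-2.1 lay 59 and 37 bp from them. Upstream of egg-5, a pseudophosphatase gene acting at the egg-to-embryo transition, the 2 summits at -595 and -794 bp shared replicate values of 550.6 and 471.5, with sls-2.4 at 22 and 68 bp, and conservative signals of 1043 and 436.8.

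The snoRNA genes F59C6.15 and Y67A10A.14 lay beside the summits of F59C6.18 (745 and 625 in the replicates) and fbxa-83, an F-box gene (630 and 518). The snr-4 summit, upstream of an Sm protein gene of the spliceosome, had 511 and 374 and lay 32 bp from the snRNA gene T11F9.15, but the nearer summit at -369 bp in that interval had the higher conservative signal, 897 against 301.9. All 15 of the strongest summits lay between genes, 7 of them within 200 bp of an snRNA or snoRNA gene, and 11 had a copy of their sequence elsewhere in the genome. Over all 239 members these counts were 155, 22 and 62. Of the 15, 4 ranked there by a value that may belong to a stronger neighbour: eel-1, snr-4 and the weaker summits of H41C03.3 and egg-5. All of these but eel-1 were among the 7.

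**Figure D2:**
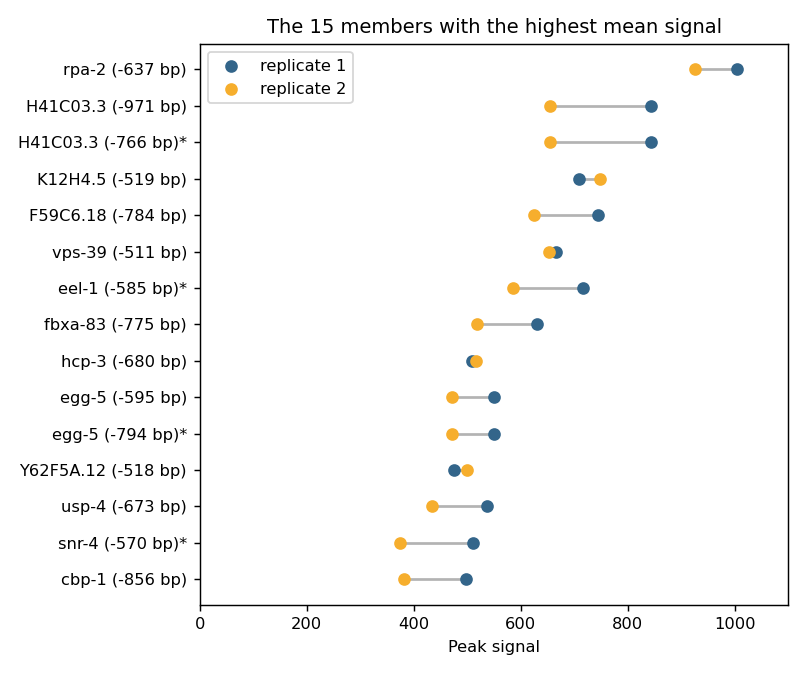
Signal (x axis, no stated unit) of the 15 distal summits with the highest mean of the replicates, with distance from the gene start beside each gene name. Blue points are replicate 1 and yellow points replicate 2, and an asterisk marks a summit whose value may belong to a stronger neighbour; rpa-2 leads with 1004 and 926.

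Genes for snRNAs and snoRNAs lay beside a larger share of distal summits than of nearer ones. An snRNA gene lay within 200 bp of 12 distal summits, or 5.02% (95% Wilson interval 2.90% to 8.57%), against 2 of 319 (0.627%) at 200 to 500 bp and 4 of 410 (0.976%) within 200 bp of the start. A snoRNA gene lay near 10 (4.18%), against 2.19% and 1.71%. Any noncoding gene lay near 59 (24.7%), against 16.3% of the summits at 200 to 500 bp and 41 of 410 at the start. Intervals and shares describe these peaks, and the differences were not tested.

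The summits beside snRNA genes had higher values. Their median was 396 in replicate 1 and 353 in replicate 2, and those beside snoRNA genes had 194 and 198, while the 180 summits with no noncoding gene nearby had 131 and 123. Of the 12 beside snRNA genes, the weaker H41C03.3 and egg-5 summits and the snr-4 summit carried the value of a stronger summit in their interval. Without these the medians of the 9 left were 319 and 218, against 128 and 122 where no noncoding gene was near, also without such summits. Beyond the sites already named, F38E11.9 had 391.9 and 386.4, eif-2Bgamma (a translation initiation factor subunit gene, with the snRNA gene sup-39 over the summit) 396.4 and 332.0, and his-42 246.7 and 203.2. The groups overlapped: F56H6.2, with an snRNA gene over its summit, had 137.8 and 126.2.

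Of the snoRNA neighbours, W03B1.5 had 298 and 339, T02E1.2 had 369 and 262, and nfx-1, where the snoRNA gene C16A3.11 covers the summit inside an intron of rps-13, had 168 and 199. The nfx-1 values come from another summit of the interval, and the ranked peaks nearest the summit had only 105.4 and 134.2. At W03B1.5 the nearest replicate 1 peak had 130.3. An ncRNA gene of the general class lay within 200 bp of 39 summits, and the 28 of them assigned to that class had medians of 185 and 138. A summit near several classes was assigned to 1, with snRNA and snoRNA genes first. They included dhs-8, a dehydrogenase-family gene (324.7 and 317.8), and swsn-7 (344.2 and 281.0), a SWI/SNF subunit gene. Near pseudogenes, after vps-39, came ari-1.4 (332.1 and 254.5) and brc-1, the BRCA1 ortholog (286.5 and 167.0).

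**Figure D3:**
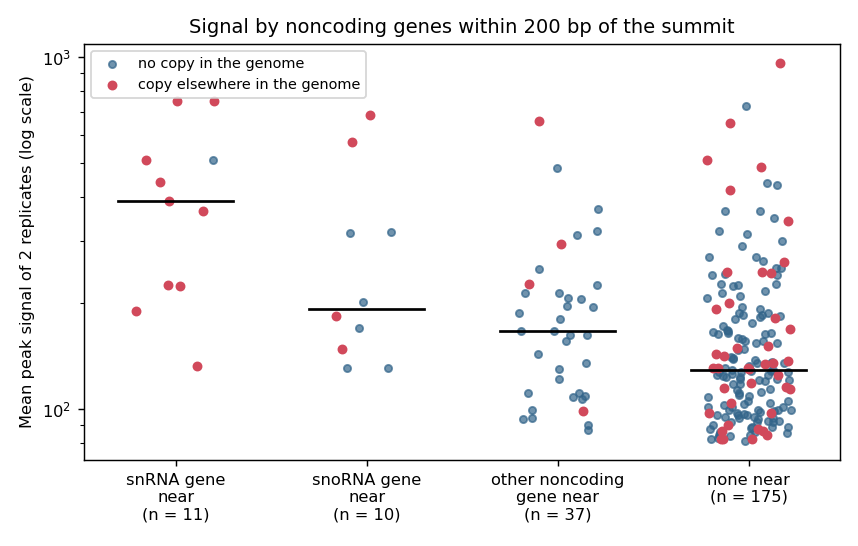
Mean signal of the 2 replicates (y axis, log scale, no stated unit) for distal summits by the class of noncoding gene within 200 bp of the summit (x axis). Each point is a summit, red where its sequence recurs elsewhere in the genome, and horizontal bars are medians; the snRNA group has the highest median, 389.2, and the group with none nearby 129.1.

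Repeated sequence was also present at a larger share of distal summits. Within 150 bp of the summit, sequence at 62 of 239 (25.9%, interval 20.8% to 31.8%) had at least 1 copy elsewhere in the genome of at least 100 bp at 80% identity, and 49 of these had a copy inside another conservative peak. The shares at 200 to 500 bp and within 200 bp of the start were 13.2% and 8.29%. The 62 comprised 15 beside snRNA or snoRNA genes, 6 at histone genes and 41 others, of which 25 had 10 or more copies. The way reads that match several places were treated is not given in the sources used here, and its part in these values was not tested.

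Members with a copy had medians of 162 and 166 in replicates 1 and 2, and those without had 139 and 125. In 28 members the related sequence was at another distal summit, in 11 families. The family of Y62F5A.12, W09B6.4 and eel-1 had mean signals from 341.7 to 650.7, that of egg-5 and H41C03.3 from 511.1 to 749.2, and that of col-52, ZK1053.2, test-1 and eri-12 from 168.1 to 261.2. Y62F5A.12 had 73 copies in the genome, of which 17 lay in conservative peaks, and vps-39 had 35, of which 16 did.

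The histone genes his-47, his-48, his-58 and his-61 had distal summits in multicopy clusters, where related genes run close together. At each of these summits the start of another histone gene was nearer, at 250 to 471 bp. The annotation gives the name his-58 to more than 1 gene, and 2 of these had a summit. The values of these histone summits ran from 113.0 (his-48) to 242.7 (his-47) in replicate 1 and from 135.2 (his-58) to 247.0 (his-47) in replicate 2. The his-61 summit and the his-47 summit at -556 bp had conservative signals of only 71.3 and 46.7, so their values may belong to a stronger neighbour.

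By place, 155 of the 239 summits (64.9%) lay between genes, 48 (20.1%) inside another protein-coding gene and 36 (15.1%) inside the gene itself, that is, upstream of an internal start. In the nearer classes 7.84% and 6.10% lay inside another gene. Of the 48, 22 were in a coding exon, 14 in an intron, 9 in a 3' UTR, 2 in a 5' UTR and 1 in another exon, and the host ran on the strand of the gene downstream in 28 and on the other strand in 20. Medians were 156 and 135 between genes, 124 and 122 in another gene and 152 and 134 in the gene itself. The highest within a gene was C33B4.4, in its own intron, with 427.4 and 437.4.

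Among summits in an intron of their own gene were some at chromatin genes. zfp-1, a gene for an AF10-related chromatin protein, had summits at -722 and -910 bp with 221.0 and 232.0, and 240.3 and 208.6. These zfp-1 distances are from different starts of the gene, with the summits at 8802097 and 8797488 on chromosome III. pbrm-1, a polybromo gene, had 212.2 and 220.0 at -725 bp, and 212.2 and 122.8 at -526 bp, where the conservative signal was 98.8 and the replicate 1 peak nearest the summit had 93.3. In another gene, C47E8.11 lay in a coding exon of the hsp-90 gene with 368.1 and 328.8, but its own conservative signal was 34.3, with its neighbour at -146 bp at 329.

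Where the 155 intergenic summits had their upstream neighbour, 62 (40.0%) were divergent from it and 93 ran in tandem. Divergent sites had medians of 163 and 145 and tandem sites 139 and 127. The median gap to the neighbouring gene was 2389.5 bp for divergent and 520 bp for tandem pairs, but the selection rule shaped this difference. A divergent start within 1000 bp of a summit puts the summit in a second promoter window, which left it out. A tandem neighbour ends toward the summit, and its gap had no such limit. The divergent share was 32.7% at 200 to 500 bp and 27.2% within 200 bp of the start. The same exclusion bears on all of these shares.

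A second summit nearer the start was present at 39 of the 223 genes (17.5%). In 10 of these the pair carried the same replicate values, in 14 the nearer summit was higher in both replicates, and in 9 the distal one was. At ppm-1.A, a protein phosphatase gene, the distal summit had 209.0 and 217.0 against 88.2 and 86.6 at 5 bp downstream of the start, whereas at T02E1.2 the distal summit had 369.2 and 262.1 against 358.4 and 290.8. At ift-43, an intraflagellar transport gene, distal summits at -983 and -662 bp and the nearer one at -459 bp shared replicate values of 323.8 and 215.2, with conservative signals of 444.4, 185.3 and 439.6.

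Only 223 of 17242 autosomal protein-coding genes had a distal summit, 1.29%, and 1916 (11.1%) had any promoter summit. Among genes with any promoter summit, the background was therefore 223 of 1916. By lists of gene names, 69 of the 223 were on one of 35 lists, 29 lists had at least 1 gene and 154 genes were on none. Chromatin regulators had most: 8 of 92 genes (40 with any promoter summit), namely cbp-1, swsn-7, lin-59, zfp-1, pbrm-1, chd-7, chd-1 and lin-13. Their median was 221 in replicate 1 and 198 in replicate 2, from 117.9 and 80.2 at lin-13 to the values of cbp-1. Histones had 6 of 77 genes (23 with any promoter summit).

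The list of cytosolic ribosomal proteins held 81 genes, 57 with any promoter summit and 1, rps-30, with a distal one (1.23%, near the background), within a coding exon of grl-10. Of mitochondrial ribosomal proteins, 3 of 70 had one: mrpl-15 (357 and 271), mrpl-23 (204 and 197) and mrps-25 (90.3 and 76.6). Vesicle traffic held vps-39, copd-1, a coatomer subunit gene (173.6 and 195.3), and the ESCRT genes vps-36 (94.3 and 121.6) and vps-37 (87.9 and 92.1). The respiratory chain held cox-6A (229.5 and 217.8, with an snRNA gene 49 bp away), sdhd-1 (132.1 and 95.6) and atp-4 (88.8 and 80.5). The collagen genes col-63 and col-52 had 384.0 and 356.7, and 214.7 and 272.5. No distal summit fell on the lists of proteasome subunits (33 genes, 15 with any promoter summit), ubiquitin enzymes, cullins and Skp1 genes (57, 9 with any) or homeobox genes (72, 5 with any). The same held for sperm genes (93, 2 with any), detoxification (228, 12 with any) and nuclear hormone receptors (247, 15 with any). The background was 1.29% of genes, so a short list can hold none at that share. The longer of these lists had few promoter summits at any distance. The ubiquitin ligase gene eel-1 and the ubiquitin-specific protease gene usp-4, which had distal summits, were not on the ubiquitin list. The lists took genes by name, so egl-4, a kinase gene, stood in the developmental regulators and dpy-27, a condensin subunit gene of dosage compensation, in the cuticle list.

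The signalling list had a distal summit at 3 of 74 genes, the germline list at 2 of 76 and the small RNA list at 3 of 66. The Wnt genes wrm-1, a beta-catenin, and lit-1, a Nemo-like kinase, had 145.2 and 135.6, and 102.4 and 82.5. The germline genes were egg-5 and cgh-1, a DEAD-box helicase gene (214.1 and 175.8), and ego-1, an RNA-dependent RNA polymerase gene of small RNA pathways, had 188.6 and 186.8. hsp-4, the endoplasmic reticulum chaperone BiP, had a mean of 97.1. tra-1, the GLI-family regulator of sex determination, had summits at -565 and -766 bp, both with 90.1 and 73.6, and the latter had the lowest conservative signal of all, 8.74. The next lowest conservative signals were those of T22D1.3 (9.22), blos-7 (11.6), the forkhead gene fkh-7 (18.5) and C36B1.11 (19.9), although their ranked peaks had 147.5 and 119.9, 82.1 and 81.2, 199.4 and 111.4, and 119.9 and 115.4.

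**Figure D4:**
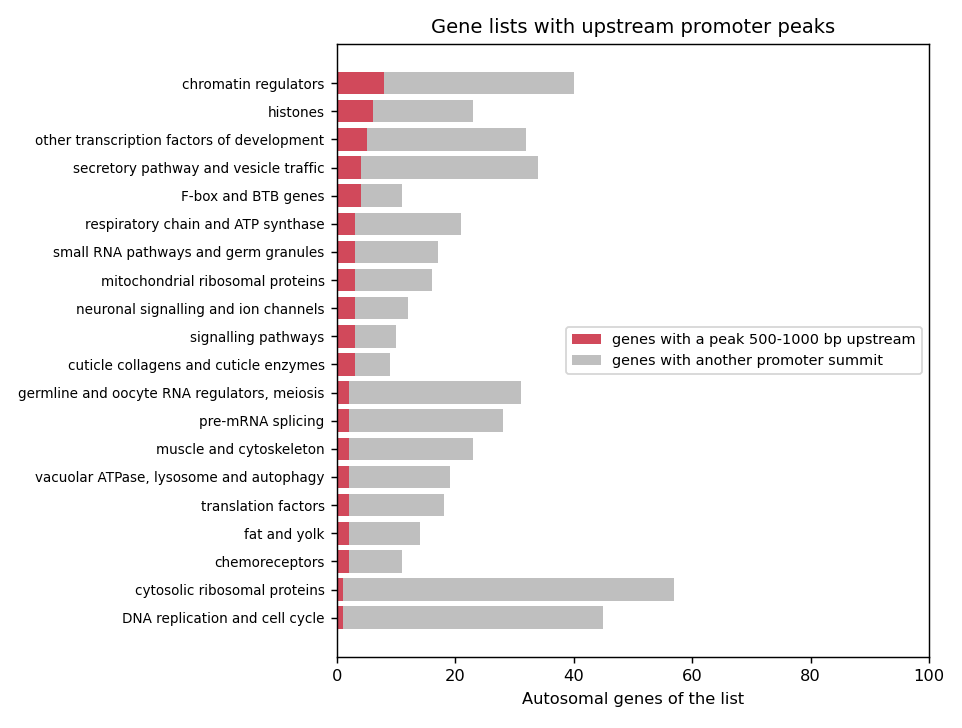
Autosomal genes of each of 20 gene lists (x axis, number of genes) with a distal promoter summit (red) and with another promoter summit only (grey). Chromatin regulators have 8 red genes of 40, and cytosolic ribosomal proteins 1 of 57. Over all autosomal protein-coding genes with any promoter summit, the background is 223 of 1916.

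GC content rose at the summits. The median over the 50 bp to either side was 47.5%, against 36.6% in windows 200 bp to either side, and 65.3% of the distal summits exceeded both of their flanks. At 200 to 500 bp 81.8% did, and within 200 bp of the start 62.9%. Windows centred 750 bp upstream of 17241 autosomal genes had a median of 34.7%.

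The 6-letter word GAGAGA, counted on both strands, was in 58 distal windows (24.3%, interval 19.3% to 30.1%), against 7.74% of the flanking windows and 5.10% of the gene windows at that distance. It was in 21.9% and 20.7% of the nearer classes, within the interval of the distal share. The word CGTCTC was in 18.8% (5.65% of flanks) and ACGCAG in 13.4% (3.35% of flanks). Both were picked after the data were seen. GCGCGC was less common than in the nearer classes, at 4.60% against 13.2% and 11.5%. TATAAA was in 2.51% against 10.5% of flanks, TTTCAG in 7.53% against 14.6%, and TTTTTT in 23.4% against 40.0%. Base composition differs between summits and flanks, and its part in these shares was not tested.

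Counting GAGAGA with CGTCTC and ACGCAG, 148 distal windows held none of these 3 words and 9 held all 3. The word CGCGCC was not part of this count. The median mean signal was 132.0 with none, 164.2 with 1 (56 members), 124.7 with 2 (26 members) and 173.6 with all 3, so it did not rise steadily with the number of words. Windows with GAGAGA had 158.8 and those without 132.8. A word is a match of letters, and says nothing about which factor binds.

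**Figure D5:**
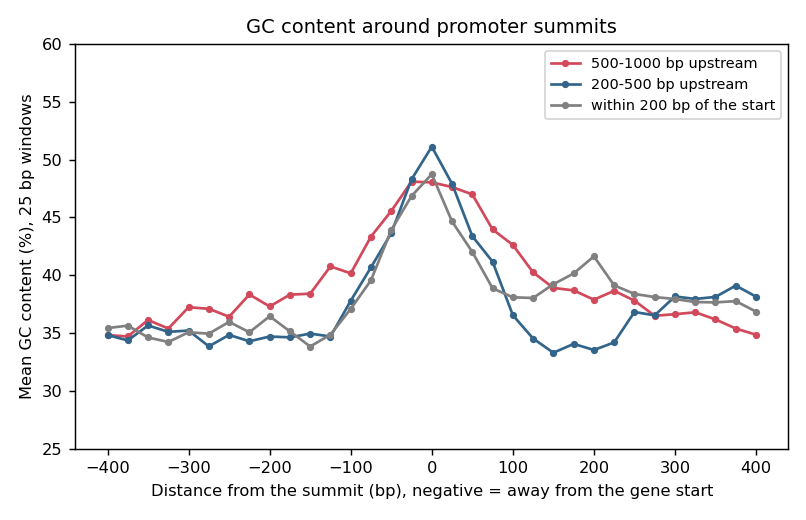
Mean GC content (y axis, percent, 25 bp windows) by distance from the summit (x axis, bp, negative away from the gene start) for the distal class (red) and the 2 nearer promoter classes (blue and grey). All 3 lines are highest at or within 25 bp of the summit. From 50 to 125 bp on both sides the distal line lies above the other 2. Farther toward the gene start it does not stay highest: at 200 bp it is at 37.9% and the grey line, within 200 bp of the start, at 41.6%.

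Replicates differed most at F48C1.3 (log2 ratio 1.86, 269.8 in replicate 1 and 74.5 in replicate 2), where the replicate 1 value comes from another summit of the interval. K11D2.4 followed (279.4 and 138.4), then tbb-2, a beta-tubulin gene (148.1 and 74.1), dhc-1, a dynein heavy chain gene (135.5 and 70.0), and sqv-8 (160.4 and 85.6). All 5 were higher in replicate 1.

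By chromosome the summits numbered 50, 47, 51, 53 and 38 on I, II, III, IV and V. Their medians in replicate 1 ran from 120 on V to 159 on II, and in replicate 2 from 114 on V to 146 on II.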

How the data were processed

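Anti-GFP chromatin immunoprecipitation peaks of 2 biological replicates of strain RW12180 were used. Each sample has a ranked and a thresholded peak list and both together a conservative and a larger one, on ce11, per the file headers and notes. Signal and score values are as the authors deposited them; aligner, peak caller and scaling were not given in the sources used here. A control experiment that the labels name was not analysed here. Without read counts the depth cannot be given, and intervals cover the number of peaks.

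Members, gene lists, words and tests were chosen with earlier results of these data known. Transcript starts were from Ensembl release 115 (WBcel235, the same sequence as ce11). Peaks overlapped where they shared at least 1 bp. Genome copies were found with blastn 2.17.0, and tables were made with pandas 2.3.3 and numpy 2.4.6 in Python 3.11.15. Shares have 95% Wilson intervals. Named genes were those with the strongest or weakest signal, the top 3 of each list and noncoding class, the largest replicate ratios, a nearer summit, or a place at a distance limit. Scripts were tested on simulated data.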

Additional observations from a re-analysis of the deposited data

How the results depend on the processing

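No paired analysis was possible because the 2 samples form 1 group. Under the other settings, 56 values held and 24 moved. With conservative peaks of at least the median signal, 123 summits remained, with median mean signal 192.1, overlap of 96.75% and 93.5% in replicates 1 and 2, a second summit at 10.17%, median GC 49.5%, GC 12.87 points above flanks and GAGAGA in 30.89%. In the larger set the median signal was 114.3 and the overlaps 66.67% and 55.76%. Overlap covering at least 50% of each peak gave 69.87% and 51.46%, and summits within 100 bp gave 70.71% and 61.09%. A wider window gave GC 46.27%, a rise of 8.955 points and GAGAGA in 39.33%, and flanks 300 bp away a rise of 12.87. Without members inside a gene a second summit was at 12.33%. Copies at 90% identity were at 17.57% of members. With the peaks of 1 replicate alone, the median signal was 138.3 to 152.9 and median GC 45.54% to 48.51%. Beside snRNA genes the median mean signal was 389.2, and 294.6 without summits that carried a stronger neighbour's value. This setting and those without members inside a gene and at 90% identity were chosen after seeing the data.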
